A study of Homo sapiens with 4 samples.

Results

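The genes examined were those for the proteins of the mitochondrial ribosome that carry the symbols MRPL (large subunit) and MRPS (small subunit). They were taken as every row of the gene count table whose name is one of these prefixes followed by a number and at most 1 letter A, B or C. The rule found 78 of the 22637 genes in the table, 49 for the large and 29 for the small subunit, and pseudogenes were thereby left out. Total RNA came from 4 human prostate adenocarcinoma cell lines with 1 library each. LNCaP is a castration-sensitive line and LN-OlapR is its olaparib-resistant derivative. C4-2B is a castration-resistant line that descends from LNCaP, and 2B-OlapR is its olaparib-resistant derivative. Olaparib inhibits PARP enzymes, which act in DNA repair, and according to the methods of the study the resistant lines arose under long exposure to rising doses. All 4 lines were labelled untreated. The design text of the series gives 48 hours of plating without a selection agent before RNA isolation, whereas the methods of the study give a longer time and keep the resistant lines in medium with olaparib, so that exposure before RNA isolation is not settled by these sources.

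The mitochondrial ribosome, or mitoribosome, translates the few mRNAs encoded in mitochondrial DNA, all of which specify subunits of the oxidative phosphorylation (OxPhos) complexes. Its rRNAs are encoded in mitochondrial DNA as well, but all of its proteins are encoded in the nucleus, made in the cytosol and imported. Some of these proteins have counterparts in the bacterial ribosome, and others are found in mitochondria only.

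Library totals ranged from 19950537 to 26394267 counts, and the counts of single mitoribosomal genes ranged from 202 to 7382. Every one of the 78 genes therefore lay far above the 3 counts taken as the floor, and all passed the filter of at least 1 normalized CPM (counts per 1e6 counts of a library) over each pair of lines. As each line has 1 library, there is no replicate check and no test. The 95% intervals given cover counting error only, and a difference beyond them is a difference between 2 libraries. Markers of luminal prostate epithelium were detected in every library, such as KRT18, a luminal keratin, at 374.6 to 422.1 normalized CPM and EPCAM, an epithelial adhesion molecule, at 47.6 to 65.9. The LNCaP library stood apart in KLK3, which encodes prostate-specific antigen, with 53.1 normalized CPM against 1870.1 to 2685.3 in the other 3 libraries. LNCaP is the reference of 2 comparisons below, and the part of this difference in them was not tested. Of the markers of basal, leukocyte, fibroblast and endothelial cells, KRT14, CD68, COL1A1, PDGFRB and VWF were measured, with at most 16.1 normalized CPM, and others, such as TP63, KRT5, PTPRC, CD3E, COL1A2, DCN, PECAM1 and CDH5, were not analysed here.

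The mitoribosomal genes as a whole took the smallest share of counts in LNCaP and the largest in 2B-OlapR. LNCaP gave them 0.582% of its counts (95% Wilson interval, 0.579% to 0.585%) and LN-OlapR 0.587% (0.584% to 0.591%). For C4-2B the share was 0.679% (0.676% to 0.683%), and for 2B-OlapR it was 0.749% (0.746% to 0.753%). The C4-2B lineage thus lay above the LNCaP lineage, and the shares of LNCaP and LN-OlapR were neighbours whose intervals overlapped. In bulk RNA, fewer cells with a transcript and less of it per cell cannot be told apart. On the scale of normalized CPM, which is CPM corrected for library composition, the summed level of the large subunit genes was 3505, 3728, 4119 and 4701 across LNCaP, LN-OlapR, C4-2B and 2B-OlapR. For the small subunit genes the sums were 2210, 2387, 2505 and 2820 in the same order. Both sums were lowest in LNCaP and highest in 2B-OlapR. In 2B-OlapR the large subunit sum was 1.14-fold and the small subunit sum 1.13-fold that of C4-2B, and in LN-OlapR the corresponding values against LNCaP were 1.06-fold and 1.08-fold. The ratio of the large to the small subunit sum stayed between 1.56 and 1.67 in all 4 libraries.

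Over single genes, 2B-OlapR was the library with the highest normalized CPM for 46 of the 78 genes, C4-2B for 12, LN-OlapR for 11 and LNCaP for 9. LNCaP was the lowest library for 29 genes and 2B-OlapR for 10. Most of these differences were small. The highest library exceeded the lowest by a median of 1.41-fold over the 78 genes, by at least 1.5-fold for 29 and by at least 2-fold for 5. MRPS25 varied least, at 1.06-fold, and MRPL57 varied most, at 2.75-fold.

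**Figure D1:**
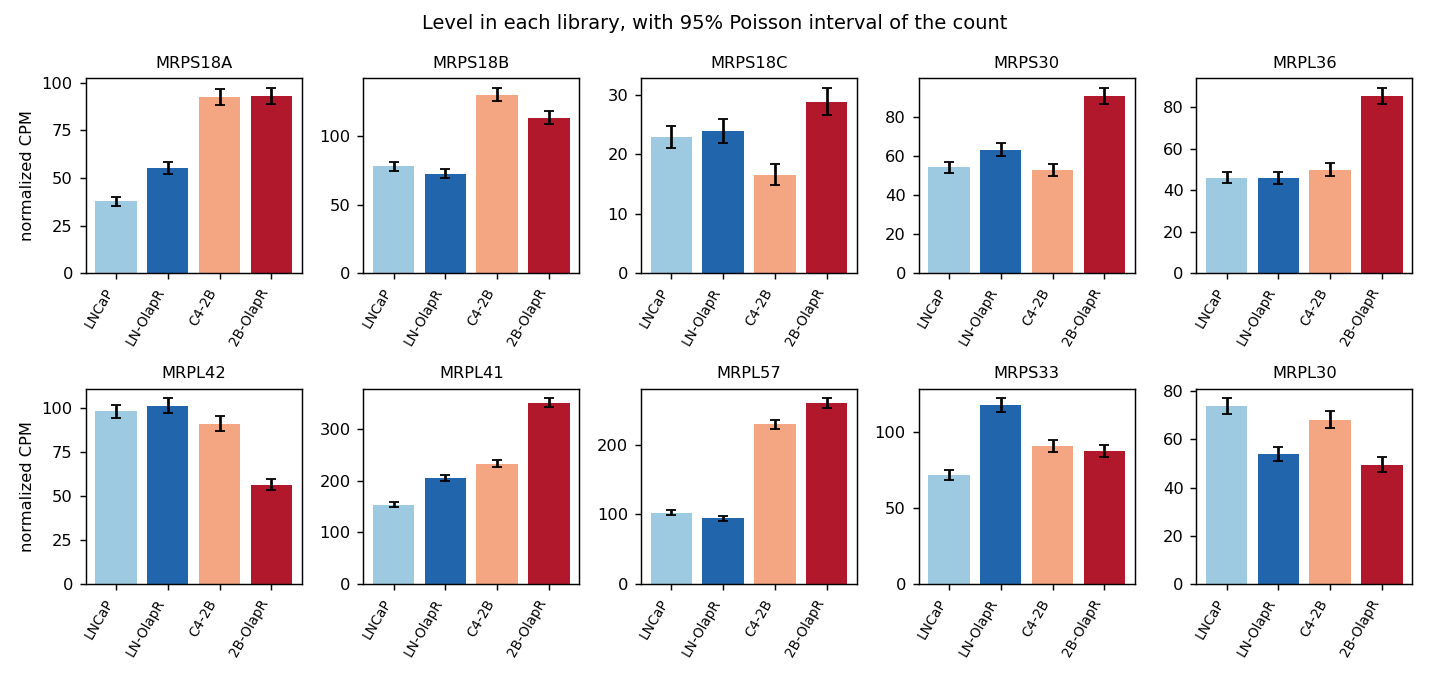
Level of 10 mitoribosomal genes in normalized CPM in each of the 4 libraries (bars, 1 library each), with the exact 95% Poisson interval of the count as error bars; each panel has its own scale, starting at 0. MRPS18C, MRPS30, MRPL36 and MRPL41 were highest in 2B-OlapR, MRPL42 was lowest there, MRPS33 was highest in LN-OlapR, and MRPS18A, MRPS18B and MRPL57 were higher in both C4-2B lines than in both LNCaP lines.

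In 2B-OlapR against C4-2B, here called the 2B comparison, most mitoribosomal genes were modestly higher in the resistant line. The level was higher for 57 of the 78 genes, whereas 50.0% of all 15527 genes tested were higher, or 52.1% of those whose mean reached 10 normalized CPM, as all 78 did. The median log2 ratio was 0.15 (interquartile range, -0.01 to 0.34), against a median of 0.00 over all genes tested. Large and small subunits shared this pattern, with 36 of 49 genes higher and a median of 0.16 for the large subunit, and 21 of 29 higher and a median of 0.12 for the small one. At least 1.5-fold higher were 6 of the 78 genes, against 10.7% of all genes tested and 6.50% of those whose mean reached 10. MRPL42 was at least 1.5-fold lower, 1 of 78 against 13.5% and 8.45%, and no mitoribosomal gene reached 2-fold in either direction. With total counts the genes at least 1.5-fold higher were 4, as MRPL54 (log2 ratio, 0.56) and MRPL41 (0.55) no longer reached the limit, and MRPL52 at -0.61 joined MRPL42.

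The highest ratios of the 2B comparison belonged to MRPS18C, MRPS30 and MRPL36. MRPS18C encodes a small subunit protein with a bacterial counterpart, and its normalized CPM were 22.9, 23.9, 16.5 and 28.8 across LNCaP, LN-OlapR, C4-2B and 2B-OlapR. The log2 ratio in the 2B comparison was 0.80 (95% counting interval, 0.61 to 0.99), and C4-2B was the lowest library for this gene. MRPS30, which despite its name lies in the large subunit of the assembled mitoribosome, had 54.4, 63.3, 52.9 and 91.0 normalized CPM in the same order of libraries. It was thus highest in 2B-OlapR, with a log2 ratio of 0.78 (0.67 to 0.89) in the 2B comparison and 0.22 (0.11 to 0.32) in LN-OlapR against LNCaP, here called the LN comparison. MRPL36, the counterpart of the smallest protein of the bacterial large subunit, had 46.1, 45.9, 49.8 and 85.3 normalized CPM. 2B-OlapR stood above the other 3 libraries, which lay between 45.9 and 49.8, with a log2 ratio of 0.78 (0.66 to 0.89) in the 2B comparison and -0.01 (-0.12 to 0.11) in the LN comparison.

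MRPL34, MRPL54 and MRPL41 completed the genes at least 1.5-fold higher in 2B-OlapR, though with total counts MRPL54 and MRPL41 fell short of 1.5-fold. MRPL34, with a bacterial counterpart, had 57.0, 57.4, 70.2 and 113.1 normalized CPM in LNCaP, LN-OlapR, C4-2B and 2B-OlapR, and its log2 ratio was 0.69 (0.59 to 0.78) in the 2B comparison and 0.01 (-0.09 to 0.12) in the LN comparison. MRPL54, a protein of the mitochondrial large subunit without a bacterial counterpart, had 34.4, 42.7, 33.5 and 50.8. Both resistant lines lay above their parental lines for it, with log2 ratios of 0.60 (0.46 to 0.74) and 0.31 (0.18 to 0.44). MRPL41, another mitochondria-specific protein of the large subunit, had 154.0, 205.4, 233.5 and 351.9, with LNCaP its lowest and 2B-OlapR its highest library. Its log2 ratios were 0.59 (0.54 to 0.64) in the 2B comparison and 0.42 (0.36 to 0.48) in the LN comparison.

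At the other end, MRPL42, MRPL52 and MRPL30 of the large subunit were lower in 2B-OlapR. MRPL42, which is mitochondria-specific, had 98.1, 101.3, 91.1 and 56.5 normalized CPM in the same order, and 2B-OlapR stood below the other 3 libraries, with a log2 ratio of -0.69 (-0.80 to -0.59) in the 2B comparison and 0.05 (-0.03 to 0.13) in the LN comparison. MRPL52, also mitochondria-specific, had 39.4, 34.7, 44.0 and 29.6, and was lower in both resistant lines, with log2 ratios of -0.57 (-0.72 to -0.42) and -0.18 (-0.32 to -0.05). MRPL30, with a bacterial counterpart, had 73.6, 53.8, 68.1 and 49.5. Its ratio was nearly equal in both comparisons, at -0.46 (-0.58 to -0.34) and -0.45 (-0.55 to -0.35). MRPL16 and MRPS35 came next, with log2 ratios in the 2B comparison of -0.28 (-0.38 to -0.18) and -0.20 (-0.30 to -0.11). Their levels in LNCaP, LN-OlapR, C4-2B and 2B-OlapR were 68.3, 79.5, 82.2 and 67.8 normalized CPM for MRPL16 and 88.1, 127.4, 97.4 and 84.6 for MRPS35, and for both LN-OlapR lay above LNCaP.

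**Figure D2:**
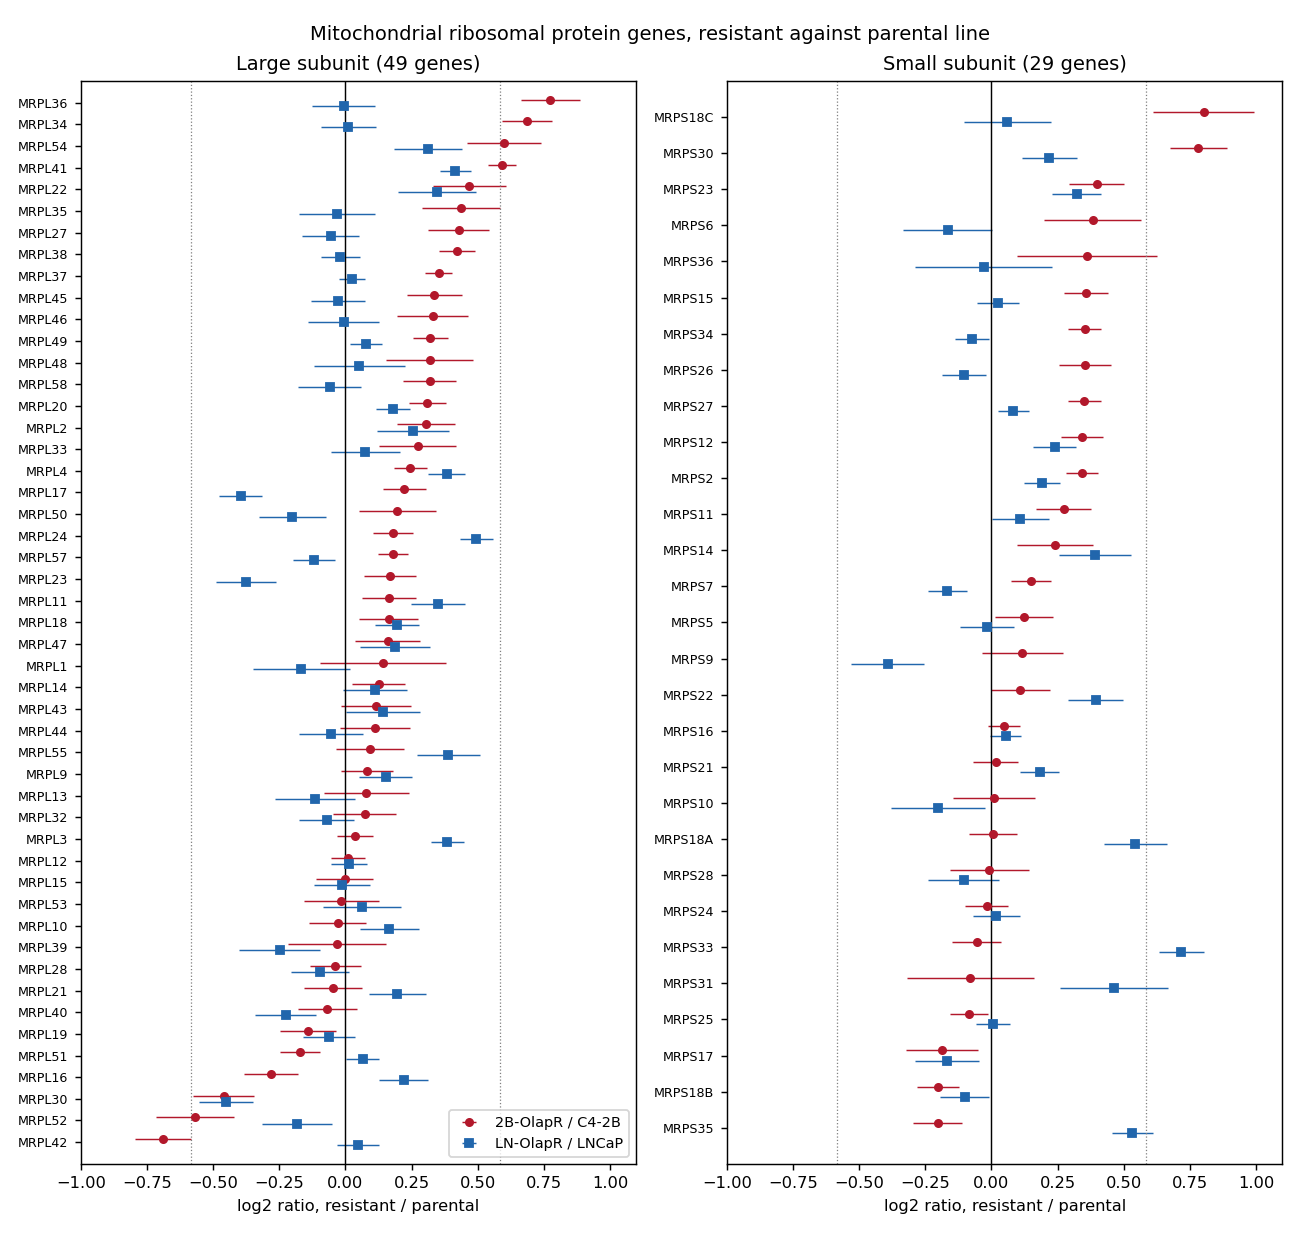
Ratio of resistant to parental line, on the log2 scale, for each of the 78 mitoribosomal genes (circles, 2B comparison; squares, LN comparison), with 95% counting intervals, ordered by the 2B comparison within each subunit; dotted lines mark 1.5-fold. In the 2B comparison 57 of 78 genes lie to the right of 0; in the LN comparison 45 do with normalized CPM, and 30 when libraries are scaled by total counts.

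The promoter sequences of the 3 genes with the highest and the 3 with the lowest ratios of the 2B comparison are shown so that the sequence at both ends can be compared. They are taken from RefSeq (build GRCh38.p14), run from 250 bases before to 30 bases after the annotated transcription start, and are written 5′ to 3′ on the strand of the gene. Capitals mark matches, on either strand, to 3 motifs of factors known to bind promoters of nuclear genes for mitochondrial proteins: GCATGCGC, the core of the NRF1 site, CCGGAAGT, a site of ETS factors such as GABPA, and AAGATGGCG, a site of YY1. The positions are chr4:83455808-83456087 (+ strand) for MRPS18C, chr5:44808697-44808976 (+ strand) for MRPS30, chr5:1799808-1800087 (- strand) for MRPL36, chr12:93467264-93467543 (+ strand) for MRPL42, chr14:22829637-22829916 (+ strand) for MRPL52 and chr2:99180934-99181213 (+ strand) for MRPL30.
MRPS18C: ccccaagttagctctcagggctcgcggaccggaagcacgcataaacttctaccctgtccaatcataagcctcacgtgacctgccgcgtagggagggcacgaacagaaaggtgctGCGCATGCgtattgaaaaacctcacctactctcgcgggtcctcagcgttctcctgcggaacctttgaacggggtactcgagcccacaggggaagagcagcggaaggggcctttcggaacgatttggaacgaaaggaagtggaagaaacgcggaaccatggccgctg
MRPS30: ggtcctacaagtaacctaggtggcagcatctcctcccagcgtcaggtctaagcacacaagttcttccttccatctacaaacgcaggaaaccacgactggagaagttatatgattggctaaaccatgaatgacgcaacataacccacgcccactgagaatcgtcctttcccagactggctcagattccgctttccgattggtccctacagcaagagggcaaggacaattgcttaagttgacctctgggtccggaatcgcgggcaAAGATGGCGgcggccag
MRPL36: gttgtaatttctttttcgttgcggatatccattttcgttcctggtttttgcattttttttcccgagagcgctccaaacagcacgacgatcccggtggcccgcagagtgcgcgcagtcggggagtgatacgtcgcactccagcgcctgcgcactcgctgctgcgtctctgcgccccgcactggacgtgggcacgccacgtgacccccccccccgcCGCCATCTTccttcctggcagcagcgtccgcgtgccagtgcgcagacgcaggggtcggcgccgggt
MRPL42: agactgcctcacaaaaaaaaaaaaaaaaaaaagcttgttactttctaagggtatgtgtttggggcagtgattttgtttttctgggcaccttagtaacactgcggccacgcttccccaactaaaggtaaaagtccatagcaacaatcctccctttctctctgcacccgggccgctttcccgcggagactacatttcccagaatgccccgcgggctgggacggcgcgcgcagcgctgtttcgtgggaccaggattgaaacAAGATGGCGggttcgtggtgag
MRPL52: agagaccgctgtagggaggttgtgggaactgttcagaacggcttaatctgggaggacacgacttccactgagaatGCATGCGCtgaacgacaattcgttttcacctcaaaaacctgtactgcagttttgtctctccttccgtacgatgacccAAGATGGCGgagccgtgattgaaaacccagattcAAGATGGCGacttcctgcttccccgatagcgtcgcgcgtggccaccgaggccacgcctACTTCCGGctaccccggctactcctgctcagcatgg
MRPL30: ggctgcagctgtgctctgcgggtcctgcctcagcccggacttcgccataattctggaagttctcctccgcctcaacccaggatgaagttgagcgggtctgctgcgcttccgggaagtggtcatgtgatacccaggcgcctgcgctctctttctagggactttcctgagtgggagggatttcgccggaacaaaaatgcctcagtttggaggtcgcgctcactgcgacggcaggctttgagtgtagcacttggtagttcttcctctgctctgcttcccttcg

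The letters did not separate the high from the low end. The YY1 letters stood in the promoters of MRPS30 and MRPL36, both at the high end, and in those of MRPL42 and MRPL52, both at the low end. MRPL52 held matches to all 3 motifs and its YY1 letters at both position -98 and position -64 from the start, while MRPS18C held the NRF1 core alone and MRPL30 none of the motifs.

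Over all mitoribosomal genes, 69 of 78 were found in the promoter table, and each was searched over the full window of 300 bases, with every annotated start counted. The YY1 letters were found in 13 of the 69 genes (18.8%), against 2.14% of the 27305 genes in the table and 4.75% of the protein-coding genes tested here. The ETS letters were found in 12 (17.4%), against 4.95% and 10.2%, and the NRF1 core in 6 (8.70%), against 3.68% and 6.52%. Matches to YY1 were alike in both subunits, at 8 of 42 large and 5 of 27 small subunit genes, and ETS matches were seen in 10 of 42 and 2 of 27. In 10 of the 13 genes with YY1 letters a match lay downstream of the start, from position 7 to 36. Of the protein-coding genes with these letters, 68.3% had a match anywhere in the 50 bases downstream of the start. The median log2 ratio of the 2B comparison was 0.07 for the genes with YY1 letters and 0.16 for those without, for ETS it was 0.13 and 0.16, and for NRF1 0.15 and 0.16. In the LN comparison the medians with and without the letters were -0.01 and 0.06 for YY1, 0.12 and 0.03 for ETS, and -0.09 and 0.05 for NRF1, with 13, 12 and 6 genes holding a match. A match describes the letters of a window and says nothing of whether a factor was bound.

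In the LN comparison the median ratio of the mitoribosomal genes stayed close to that of all genes, and their ratios spread less. With normalized CPM 45 of the 78 were higher in LN-OlapR (49.6% of the 15373 genes tested were, and 51.7% of those whose mean reached 10), but scaling by total counts turned this to 30 higher and 48 lower, with 40.5% of all genes higher. The median log2 ratio was 0.04 with normalized CPM (interquartile range, -0.07 to 0.20) and -0.05 with total counts, against all-gene medians of 0.00 and -0.09. With normalized CPM the interquartile range of all genes tested was -0.27 to 0.26, and -0.21 to 0.23 for those whose mean reached 10. By subunit, 27 of 49 large and 18 of 29 small subunit genes were higher with normalized CPM, with medians of 0.02 and 0.05, which became -0.06 and -0.03 with total counts. MRPS33 was at least 1.5-fold higher, 1 of 78 against 10.6% of all genes and 6.57% of those whose mean reached 10, as 77 of the 78 did. At least 1.5-fold lower were 0 of 78, against 10.8% and 5.74%.

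Of the 5 highest ratios of the LN comparison, 3 belonged to small subunit proteins without a bacterial counterpart. MRPS33, one of them, had 71.7, 118.0, 91.0 and 87.5 normalized CPM in LNCaP, LN-OlapR, C4-2B and 2B-OlapR, and was highest in LN-OlapR, with a log2 ratio of 0.72 (0.63 to 0.80). MRPS35, given above, had a log2 ratio of 0.53 (0.45 to 0.61), and MRPS31 one of 0.46 (0.26 to 0.67), with 13.2, 18.2, 13.9 and 13.2 normalized CPM. The pseudogene MRPS31P5, listed apart, held 25.8% as many counts as MRPS31, and reads may have been divided between the copies. The other genes among the top 5 belong to the large subunit by place: MRPS18A at 0.54 (0.43 to 0.66), described below with its paralogs, and MRPL24 at 0.50 (0.43 to 0.56), with 131.8, 185.8, 128.4 and 145.6 normalized CPM. LN-OlapR was the highest library for MRPL24.

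The lowest ratios of the LN comparison belonged to MRPL30, given above, and to MRPL17, MRPS9, MRPL23 and MRPL39. The first 3 of these 4 have bacterial counterparts, and MRPL23 lies at the exit of the channel through which the new protein leaves the large subunit. MRPL17 had 114.1, 86.8, 108.3 and 126.4 normalized CPM and a log2 ratio of -0.40 (-0.48 to -0.31). For MRPS9 the levels were 39.1, 29.8, 32.1 and 34.7, with a log2 ratio of -0.39 (-0.53 to -0.25). LN-OlapR was the lowest library for both genes. MRPL23 had 56.5, 43.5, 77.8 and 87.5, with a log2 ratio of -0.38 (-0.49 to -0.26), and MRPL39, which is mitochondria-specific, had 30.1, 25.3, 22.7 and 22.2, with a log2 ratio of -0.25 (-0.40 to -0.09).

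Mitoribosomal genes were next compared for the direction of their ratio in both resistant lines. The 2B and the LN comparison share no library. Of the 78 genes, 34 were higher in both resistant lines (28.5% of the 14602 genes tested in both comparisons), 10 were lower in both (29.1%), 23 were higher in 2B-OlapR and lower in LN-OlapR (21.2%), and 11 were lower in 2B-OlapR and higher in LN-OlapR (21.2%). With a log2 ratio of at least 0.32 in size in both comparisons, MRPL22, MRPL41 and MRPS23 were higher, 3 of 78 against 6.70% of all genes and 4.85% of those whose mean reached 10 in both, and MRPL30 alone was lower, 1 of 78 against 8.27% and 5.24%. With total counts, a scaling added here after the values were seen, 21 genes were higher and 17 lower in both resistant lines, and at the limit of 0.32 MRPL41 was the only one higher and MRPL30 again the only one lower. MRPL22, whose bacterial counterpart lines the exit channel, had 26.2, 33.3, 35.6 and 49.2 normalized CPM in LNCaP, LN-OlapR, C4-2B and 2B-OlapR, with log2 ratios of 0.47 (0.33 to 0.61) in the 2B comparison and 0.35 (0.20 to 0.49) in the LN comparison. MRPS23, a mitochondria-specific small subunit protein, had 66.8, 83.5, 64.3 and 84.7, with log2 ratios of 0.40 (0.29 to 0.50) and 0.32 (0.23 to 0.41). Its 2 parental libraries nearly coincided, as did its 2 resistant libraries.

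**Figure D3:**
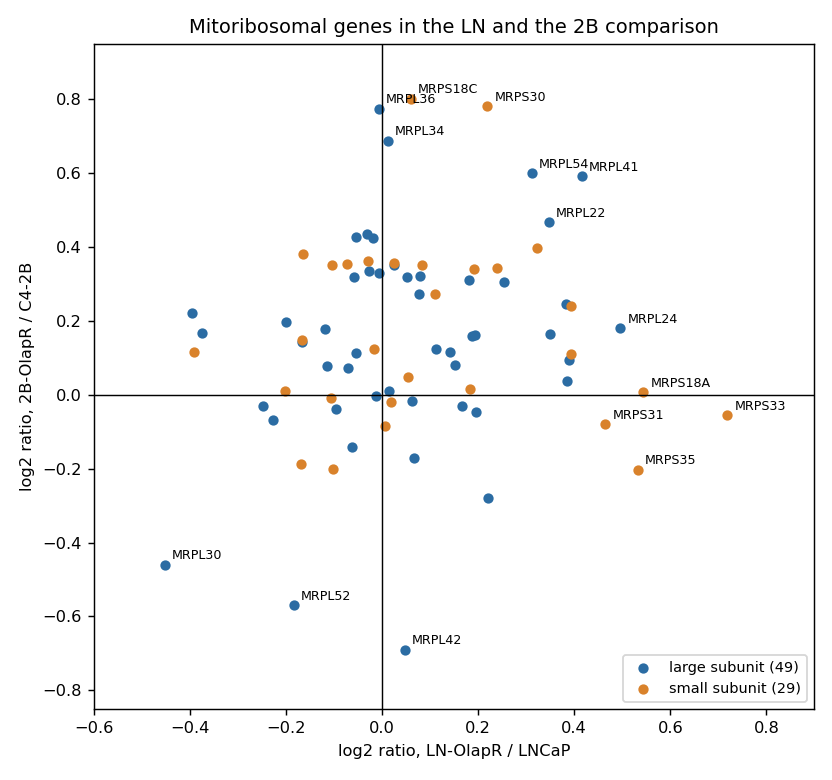
Log2 ratio of the LN comparison (horizontal) against that of the 2B comparison (vertical) for the 49 large and 29 small subunit genes, 1 point per gene, on the normalized CPM scale. The points lie mostly above 0 on the vertical axis (57 of 78) and spread on both sides of 0 on the horizontal axis (45 higher, or 30 with total counts); MRPL30 lies low on both.

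The comparison of the 2 parental lines held the largest differences of single mitoribosomal genes. C4-2B exceeded LNCaP for 52 of the 78 genes (48.6% of the 15580 genes tested), with a median log2 ratio of 0.16, of 0.20 for the large subunit (33 of 49 higher) and of 0.07 for the small subunit (19 of 29 higher). Higher by at least 1.5-fold were 10 of the 78 genes, against 16.1% of all genes tested and 11.4% of those whose mean reached 10, and MRPL1 alone was lower by as much, against 16.1% and 11.1%. This comparison shares C4-2B with the 2B comparison and LNCaP with the LN comparison.

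MRPS18A and MRPL57 were more than 2-fold higher in C4-2B. MRPL57, a mitochondria-specific protein of the large subunit, had 102.5, 94.4, 229.3 and 259.6 normalized CPM in LNCaP, LN-OlapR, C4-2B and 2B-OlapR, with a log2 ratio of 1.16 (1.09 to 1.23) between the parental lines. MRPL2, which sits close to the centre where peptide bonds form, had 31.8, 37.9, 58.0 and 71.6 and a log2 ratio of 0.87 (0.74 to 0.99). Both lines of the C4-2B lineage lay above both lines of the LNCaP lineage for each of these genes. MRPL1, part of the mobile stalk that handles the leaving tRNA, had 20.5, 18.3, 12.9 and 14.2, with a log2 ratio of -0.67 (-0.88 to -0.46). MRPL18 followed at -0.55 (-0.65 to -0.45), with 86.6, 99.1, 59.1 and 66.2, and MRPS26, a mitochondria-specific small subunit protein, at -0.48 (-0.57 to -0.38), with 100.2, 93.2, 72.0 and 91.9. For MRPL1 and MRPL18 both C4-2B lines lay below both LNCaP lines.

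The 3 paralogs MRPS18A, MRPS18B and MRPS18C, which derive from the gene of 1 bacterial protein and take different places in the mitoribosome, differed in their pattern. MRPS18A had 37.9, 55.2, 92.8 and 93.2 normalized CPM in LNCaP, LN-OlapR, C4-2B and 2B-OlapR, with a log2 ratio of 1.29 (1.18 to 1.40) between the parental lines and 0.01 (-0.08 to 0.10) in the 2B comparison. MRPS18B had 78.1, 72.8, 130.3 and 113.4, with a log2 ratio of 0.74 (0.66 to 0.82) between the parental lines and -0.20 (-0.28 to -0.12) in the 2B comparison. MRPS18C went the other way between the parental lines, with a log2 ratio of -0.47 (-0.66 to -0.28), and was the highest of all mitoribosomal genes in the 2B comparison. MRPS18A and MRPS18B lie on chromosome 6 and MRPS18C on chromosome 4.

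The order of the levels among genes is given per kilobase of transcript, as normalized CPM divided by the median length of the basic coding transcripts of GENCODE release 29. On this scale the median over the large subunit genes was 55.1, 51.6, 65.2 and 67.7 across LNCaP, LN-OlapR, C4-2B and 2B-OlapR, and over the small subunit genes 48.9, 59.8, 60.1 and 59.7. Most of these proteins stand in equal number in the mitoribosome, but the levels of their mRNAs spanned a wide range within each library, from 32.9-fold to 40.8-fold between the lowest and highest large subunit gene and from 19.1-fold to 24.7-fold in the small subunit. The highest large subunit genes by the mean over the 4 libraries were MRPL49 (310.9 to 388.3 over the libraries), MRPL51 (238.9 to 304.9) and MRPL37 (168.9 to 240.2), and the lowest were MRPL1 (8.63 to 13.8), MRPL50 (10.4 to 12.9) and MRPL22 (8.44 to 15.9). In the small subunit MRPS34 (146.3 to 222.4), MRPS27 (129.2 to 170.4) and MRPS24 (111.3 to 168.0) were highest, and MRPS36 (7.90 to 10.6), MRPS31 (9.01 to 12.5) and MRPS10 (8.96 to 15.6) were lowest. Among these genes, neighbours in the order overlapped in their ranges over the 4 lines, apart from MRPL49 and MRPL51. The length mattered: with the longest transcript in place of the median, the mean of MRPL49 over the libraries was 69.9 and that of MRPS27 was 44.0, and the ranks of the 78 genes under both lengths had a Spearman correlation of 0.798 across genes.

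MRPS36, the lowest gene with a small subunit symbol, is known as a component of the 2-oxoglutarate dehydrogenase complex of the citric acid cycle. It was placed in neither subunit when genes were grouped by place in the ribosome. Its normalized CPM were 9.67, 9.47, 9.87 and 12.7 in LNCaP, LN-OlapR, C4-2B and 2B-OlapR, and its log2 ratio was 0.36 (0.10 to 0.63) in the 2B comparison and -0.03 (-0.29 to 0.23) in the LN comparison. A pseudogene listed apart, MRPS36P1, held 24.0% as many counts as MRPS36.

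The ratios of mitoribosomal genes correlated with those of nearby genes on the chromosome. The share with the same sign was near that of all protein-coding genes in the LN comparison and between the parental lines. For each gene, up to 10 of the nearest protein-coding genes tested on either side were taken as neighbours, leaving out other mitoribosomal genes. Their median log2 ratio was set beside that of the gene. MRPL41 had only 14 neighbours. Across the 78 genes, Pearson's r between the gene and its neighbours was 0.65 in the 2B comparison, 0.60 in the LN comparison and 0.75 between the parental lines, and Spearman's rho was 0.59, 0.55 and 0.57. Across all protein-coding genes treated likewise, r was 0.29, 0.25 and 0.24, and rho 0.40, 0.38 and 0.38. These values are across genes, which share libraries and are not independent replicates. A gene and its neighbours had the same sign for 58, 53 and 48 of the 78 genes (74.4%, 67.9% and 61.5%), against 64.0%, 64.0% and 64.7% of all protein-coding genes. The set of all protein-coding genes starts at a mean of 1 normalized CPM, whereas nearly all mitoribosomal genes reached a mean of 10. The part of this difference in level in the values above was not tested.

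In the 2B comparison the 3 highest and the 2 lowest mitoribosomal genes each lay among neighbours of the same sign. The neighbour median was 0.55 for MRPL36, 0.47 for MRPS30 and 0.48 for MRPS18C, and it was -0.51 for MRPL42 and -0.53 for MRPL52. On chromosome 5, where the median log2 ratio of the 526 genes tested was 0.38, all 5 mitoribosomal genes (MRPL36, MRPS30, MRPS36, MRPS27 and MRPL22) were higher in 2B-OlapR. On chromosome 12, with a median of -0.35 over 620 genes, all 3 (MRPL51, MRPS35 and MRPL42) were lower. MRPL52 was the only mitoribosomal gene of chromosome 14, where the median was -0.43 over 412 genes. Other chromosomes did not show this. All 8 mitoribosomal genes of chromosome 1 were higher (median, 0.21), where the median over 1240 genes was -0.0004. Both genes of chromosome 15 were higher (median, 0.30), where the median over 408 genes was -0.02.

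In the other comparisons, some of the genes far from 0 also had neighbours that differed the same way. MRPS33, the highest of the LN comparison at 0.72, had a neighbour median of 0.50, MRPS31 at 0.46 one of 0.47 and MRPL17 at -0.40 one of -0.41. Between the parental lines, MRPS18A (chr6:43671303-43687791), MRPL2 (chr6:43054029-43059806) and MRPL14 (chr6:44113454-44127457) lie close together on chromosome 6, and their neighbour medians were 0.82, 0.71 and 0.82. MRPL18 (chr6:159789812-159798436), far off on the same chromosome and lower in C4-2B, had a neighbour median of -0.71. Coordinates are those of GENCODE release 29 on GRCh38.

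Some genes departed from their neighbours, of which examples follow. MRPL30 was lower in 2B-OlapR at -0.46 among neighbours with a median of 0.35, and in LN-OlapR at -0.45 among neighbours with a median of -0.05. MRPL16 was lower in 2B-OlapR at -0.28 among neighbours at 0.23. MRPL41, at 0.59 in the 2B comparison, lay among 14 neighbours at 0.09. MRPL34, at 0.69, exceeded neighbours at 0.26, of which 16 of 20 were higher as well. In the LN comparison MRPS35 at 0.53 and MRPS9 at -0.39 each had a neighbour median of -0.10. Between the parental lines MRPL4 at 0.74 lay among neighbours at 0.09, and MRPL10 at 0.51 among neighbours at -0.16. With the neighbour median taken as the reference in place of 0, 59 of the 78 genes lay above it in the 2B comparison (49.9% of all protein-coding genes did), 44 in the LN comparison (50.1%) and 53 between the parental lines (50.1%). The median difference between a gene and its neighbours was 0.12, 0.01 and 0.15 on the log2 scale.

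**Figure D4:**
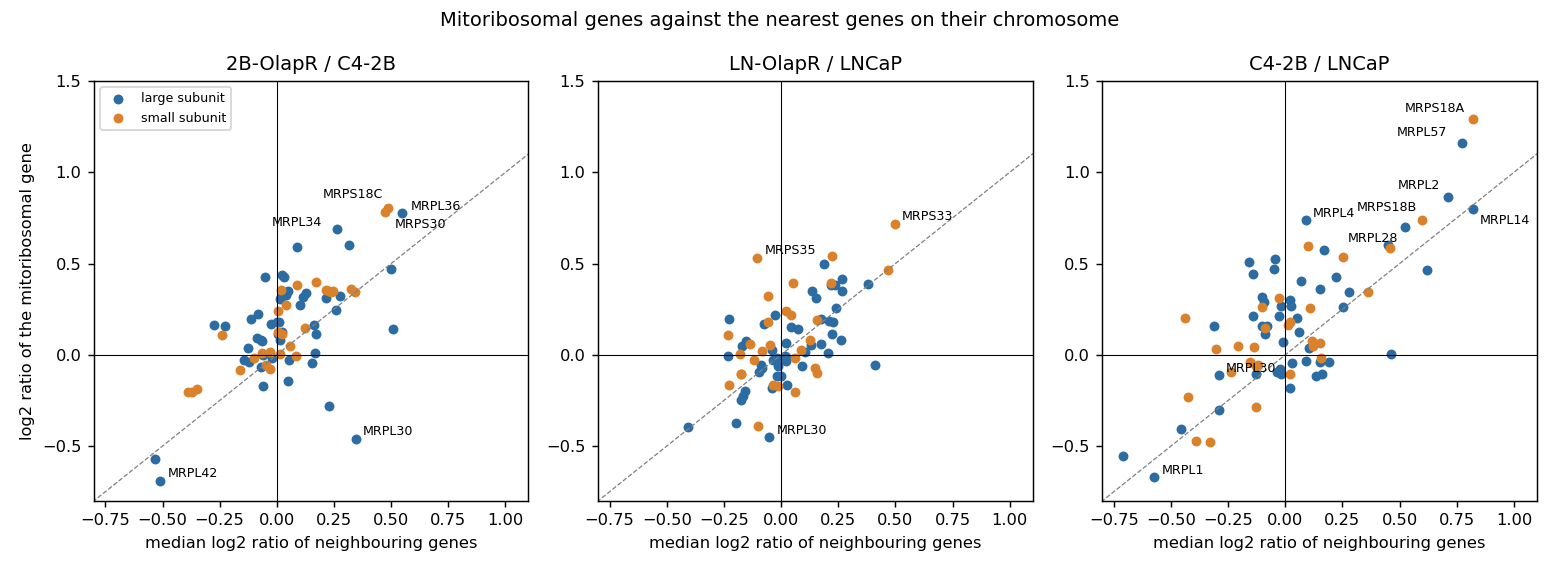
Log2 ratio of each mitoribosomal gene (vertical) against the median log2 ratio of its neighbouring protein-coding genes (horizontal) in the 2B comparison, the LN comparison and between the parental lines; the dashed line marks equality. Pearson's r across the 78 genes is 0.65, 0.60 and 0.75; among the genes off the line are MRPL30 in the 2B comparison, MRPS35 in the LN comparison and MRPL4 between the parental lines.

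Several mitoribosomal genes start head to head with another gene. This look at their starts was chosen after the values were seen. With starts within 1000 bases of each other on opposite strands, 17 such gene pairs with a tested protein-coding partner were found. MRPL32 was counted with PSMA2 and again with a further partner. Gene and partner had the same sign in 10 of 17 in the 2B comparison and in 11 of 17 in the LN comparison. The share over all head-to-head pairs was not determined. For all protein-coding genes, the sign matched that of the neighbour median in 64.0% in either comparison. That share rests on a median of many genes and is no baseline for single partners. MRPL36 (chr5:1798386-1801366) starts 34 bases from NDUFS6, a subunit of OxPhos complex I. NDUFS6 had 96.7, 96.5, 99.7 and 176.7 normalized CPM in LNCaP, LN-OlapR, C4-2B and 2B-OlapR, with log2 ratios of 0.82 in the 2B comparison and 0.00 in the LN comparison, beside 0.78 and -0.01 for MRPL36. The pattern over the 4 libraries was the same for both genes, and the neighbours of MRPL36 had a median of 0.55 in the 2B comparison. MRPL46 and MRPS11, a large and a small subunit gene, also start 34 bases apart, on chromosome 15. MRPL46 had 35.1, 34.9, 39.2 and 49.3 normalized CPM and MRPS11 had 54.1, 58.3, 64.8 and 78.2, with log2 ratios of 0.33 and 0.27 in the 2B comparison. MRPL30, in contrast, was lower in 2B-OlapR at -0.46 while its partner MITD1, 21 bases away, had a log2 ratio of 0.07.

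The 5 further proteins of the mitoribosome that carry no MRP symbol did not all move alike. AURKAIP1 of the small subunit had 173.0, 199.7, 205.4 and 277.4 normalized CPM in LNCaP, LN-OlapR, C4-2B and 2B-OlapR, and GADD45GIP1 of the large subunit had 101.9, 135.7, 163.9 and 225.0. Both were higher in both resistant lines, with log2 ratios of 0.43 and 0.21 for AURKAIP1 and 0.46 and 0.41 for GADD45GIP1. CHCHD1 was higher in 2B-OlapR at 0.36 and lower in LN-OlapR at -0.21. DAP3, the GTP-binding protein of the small subunit, was lower in 2B-OlapR at -0.25 (-0.34 to -0.16) and stood at 0.04 (-0.03 to 0.10) in the LN comparison, and PTCD3, at the mRNA entry, had log2 ratios of -0.04 and 0.04.

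The proteins were also divided into those listed as having a bacterial counterpart and those listed as specific to mitochondria. MRPS18A and MRPS18B were listed as mitochondria-specific, although they are paralogs of MRPS18C and derive from the same bacterial gene. In the 2B comparison 23 of 30 large subunit genes with a bacterial counterpart (median log2 ratio, 0.15) and 15 of 21 mitochondria-specific ones (0.20) were higher. Here the classes follow the place in the assembled ribosome. MRPS36 and the genes without an MRP symbol are in none of them. In the small subunit 13 of 16 genes with a counterpart were higher (median, 0.14), and 5 of 10 mitochondria-specific ones were (0.03). In the LN comparison the order of the latter classes was turned, with 9 of 16 higher (median, 0.02) and 7 of 10 higher (0.20).

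The other parts of the mitochondrial translation system had medians nearer to 0, or below it, in the 2B comparison. Of 24 mitoribosome assembly genes 12 were higher, with a median log2 ratio of 0.01. They ranged from TFB1M, which methylates the small subunit rRNA, at 0.73 (0.41 to 1.05) to MRM1, which methylates the large subunit rRNA, at -0.47 (-0.68 to -0.25). Of 17 translation factors 7 were higher (median, -0.05), from the release factor MTRF1L at 0.38 to MTRFR, of the same family, at -0.67. Of 17 mitochondrial aminoacyl-tRNA synthetases, which charge tRNAs, 7 were higher (median, -0.10), from CARS2 at 0.38 to NARS2 at -0.69. Among 4 genes of mitochondrial transcription, POLRMT, the RNA polymerase, was highest at 0.18 and TFAM, which packages mitochondrial DNA and starts its transcription, was lowest at -0.58 (-0.73 to -0.43). TFAM had 91.7, 90.1, 42.9 and 28.7 normalized CPM in LNCaP, LN-OlapR, C4-2B and 2B-OlapR. The median of the 77 cytosolic ribosomal protein genes was 0.10, with 52 higher. No test of the difference between these lists was possible with 1 library per line.

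In the LN comparison the medians with normalized CPM were -0.07 for assembly (9 of 24 higher), 0.00 for translation factors (9 of 17), -0.02 for the synthetases (8 of 17), -0.02 for transcription (1 of 4) and 0.16 for the cytosolic ribosome (65 of 77). The translation factors ranged from GFM1, the elongation factor that moves the ribosome along, at 0.83 (0.76 to 0.91) to TACO1, an activator of the translation of an OxPhos complex IV subunit, at -0.41. GFM1 went the other way in the 2B comparison, at -0.49 (-0.58 to -0.39). The extremes of the assembly list were NGRN at 0.38 and MRM2 at -0.46, those of the synthetases were MARS2 at 0.38 and LARS2 at -0.39, and those of transcription were TFB2M at 0.45 and TEFM at -0.33. Of the cytosolic ribosome, RPL35A was highest at 0.50 and RPS13 lowest at -0.29, and in the 2B comparison RPL6 was lowest at -0.39.

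**Figure D5:**
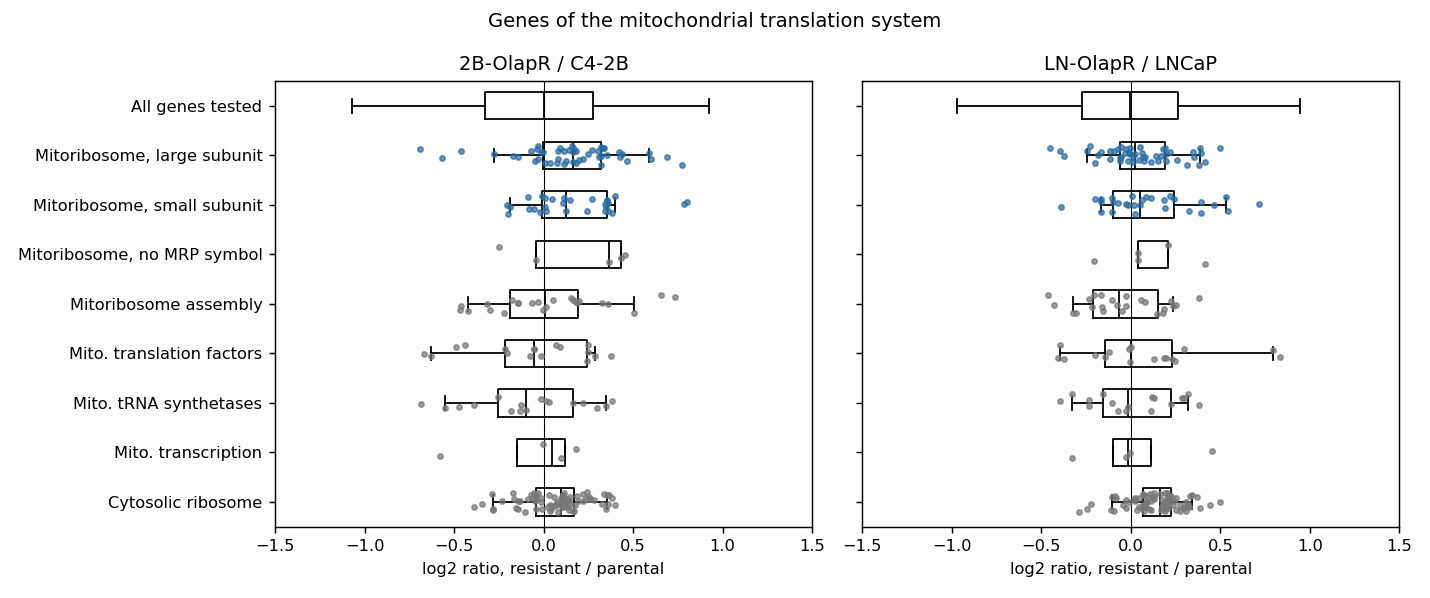
Log2 ratios in the 2B comparison and the LN comparison for all genes tested and for lists of the mitochondrial translation system (points, genes; boxes, quartiles with the median; whiskers, 5th to 95th percentile), on the normalized CPM scale. In the 2B comparison the large and small subunit medians are 0.16 and 0.12 and those of the assembly, factor and synthetase lists are 0.01, -0.05 and -0.10; in the LN comparison the subunit medians are 0.02 and 0.05, and turn to -0.06 and -0.03 with total counts.

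The rRNAs of the mitoribosome, read here from mRNA libraries, had unlike patterns. MT-RNR1, of the small subunit, had 5014, 3272, 3094 and 4056 normalized CPM in LNCaP, LN-OlapR, C4-2B and 2B-OlapR. MT-RNR2, of the large subunit, had 29228, 34902, 15603 and 14877. The log2 ratio of MT-RNR1 was 0.39 in the 2B comparison and -0.62 in the LN comparison, and that of MT-RNR2 was -0.07 and 0.26, so that they had opposite signs in these comparisons. Between the parental lines both were lower in C4-2B, with log2 ratios of -0.70 for MT-RNR1 and -0.91 for MT-RNR2.

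Some values may hold reads of other genes. For 10 of the 78 genes a pseudogene was listed as a row of its own, 12 overlap another gene on the same strand and 33 overlap one on the other strand. MRPS17 shares its strand and place with NIPSNAP2, MRPS6 with SLC5A3, MRPL28 with TMEM8A and MRPL33 with BABAM2. The libraries were stranded, but whether the counting used the strand is not given in the sources used here. None of the 6 genes at least 1.5-fold higher in 2B-OlapR overlapped another gene on the same strand. On the other strand MRPL34 overlaps ABHD8, which held 64.8% as many counts and had a log2 ratio of 0.27 in the 2B comparison, and MRPS18C overlaps ABRAXAS1, which held 16.5% as many and had a ratio of -0.07. Pseudogenes listed apart held 0.474% as many counts as MRPS18C and 0.843% as many as MRPL36.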

How the data were processed

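RNA from 4 cell lines, 1 library each, had been made into stranded mRNA libraries (KAPA). Per the submitters' processing notes, STAR, Partek and the build GRCh38 (hg38) were used; the annotation and the counting settings are not given in the sources used here. The authors deposited estimated counts per gene, not scaled between libraries: 42.3% of the values differed from a whole number by more than 0.001, and every gene sums to at least 10.0 over the libraries. Each column carries the name of a line, which gave its group.

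Here the counts were rounded and scaled with edgeR 4.0.16 (TMM factors; R 4.3.3), giving normalized CPM. Further steps used Python 3.11.15 with numpy 2.4.6, pandas 2.3.3, SciPy 1.17.1 and matplotlib 3.10.9. Log2 ratios used a pseudocount of 0.5 counts and were taken for genes averaging 1 normalized CPM or more in the 2 lines compared. Intervals are normal (ratios), exact Poisson (levels) or Wilson (shares) at 95%, for counting error only. The ratio script was checked on simulated counts. With 1 library per line no model was fitted and no library could be left out.

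Values in every library were given for the 5 highest and 5 lowest ratios of the 2B and LN comparisons, the 3 highest and 3 lowest between the parental lines, genes with log2 ratios of at least 0.32 in size and of 1 sign in both, the MRPS18 paralogs, MRPS30 and MRPS36, and, per kilobase, the 3 highest and lowest levels of each subunit. Other lists were written by hand, and their extremes are named, except for a few values not reported here. The members and lists were chosen with earlier results of these data known. MT-RNR1, MT-RNR2, TFAM levels and the head-to-head genes were added after their values were seen. Transcript lengths and positions come from GENCODE release 29 (GRCh38), promoters from RefSeq (GRCh38.p14). Alternatives were total counts, DESeq2 1.42.0 size factors, upper quartile scaling, a pseudocount of 2, mean filters of 0.1, 10 or none, unrounded counts, subunits by place in the ribosome, and sums without the highest gene.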

Additional observations from a re-analysis of the deposited data

Results flagged for a closer look

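For 10 of the 78 mitoribosomal genes the ratio of the resistant to the parental line was beyond counting error in both comparisons and of opposite sign. That is 12.8%, where 16.3% of the 14602 genes tested in both comparisons met the same description, or 19.7% of the 9549 whose mean reached 10 normalized CPM in both. The difference between the comparisons was not tested, as each line has 1 library. In 2B-OlapR 7 of these genes were higher and in LN-OlapR lower: MRPL17 had log2 ratios of 0.22 in the 2B comparison and -0.40 in the LN comparison, MRPL23 of 0.17 and -0.38, MRPL50 of 0.20 and -0.20, and MRPL57 of 0.18 and -0.12. The small subunit genes of this kind were MRPS26 at 0.35 and -0.10, MRPS34 at 0.35 and -0.07, and MRPS7 at 0.15 and -0.17. The other 3 were lower in 2B-OlapR and higher in LN-OlapR, MRPS35 at -0.20 and 0.53, MRPL16 at -0.28 and 0.22, and MRPL51 at -0.17 and 0.07. Total counts lower all LN ratios by 0.08 and all 2B ratios by 0.04 on the log2 scale. With that scaling MRPL51 was lower in both resistant lines, and the other genes named here kept opposite signs.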

How the results depend on the processing

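Of 116 alternative values 110 kept their direction and stayed within the limits set, and the other 6 all came from scaling by total counts. This tally holds values that could not change. All 78 genes passed the main filter, so the filter of 0.1 and no filter gave the main values again. The limits were also wide, as a count within 1.5-fold of the main count was taken as kept. With it the median log2 ratio of the LN comparison turned from 0.02 to -0.059 for the large subunit and from 0.05 to -0.031 for the small subunit, and the number of genes at least 1.5-fold lower in the 2B comparison went from 1 to 2, while those at least 1.5-fold higher went from 6 to 4. In counts over both comparisons, added after seeing the data, genes higher in both resistant lines went from 34 to 21 and lower in both from 10 to 17, and those higher in both by a log2 ratio of at least 0.32 went from 3 to 1. Total counts lower every ratio by 0.04 in the 2B comparison and by 0.08 in the LN comparison on the log2 scale. The count of genes higher was 52, 59 and 61 of 78 in the 2B comparison with total counts, DESeq2 and upper quartile scaling, 30, 47 and 45 in the LN comparison, and 52, 52 and 53 between the parental lines. No paired analysis was possible because each line has 1 library and no replicate number. With 1 library per line, differences between cultures of the same line cannot be told apart from differences between lines, and depth limits only the precision of each library's value.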
